A study of Mus musculus with 15 samples.

Results

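Short stretches of chromatin that carried H3K4me2 in all 4 libraries of intestinal crypt progenitors, but neither H3K27ac nor a DNase I hypersensitive site (DHS) in any progenitor library, were followed into stem cells, goblet cells and enterocytes. They are peaks of the first H3K4me2 library of enterocyte progenitors (Ent-Pro replicate 1) that were under 2000 bp long. A peak of each of the other 3 progenitor H3K4me2 lists overlapped them by at least 1 bp, and no H3K27ac or DHS peak of either progenitor did. Of 85881 peaks in that list, 77695 were under 2000 bp, 40343 of these were found in all 4 lists, 7261 of those had no H3K27ac, and 3844 had neither H3K27ac nor DHS. These 3844 regions, 4.48% of the list, are called H3K4me2-alone regions here, a name that refers to the assays of the progenitors and says nothing of other marks. The regions were chosen by their length and by the presence or absence of peaks in the progenitor H3K4me2, H3K27ac and DHS lists, and these values are given as a description. The goblet cell, enterocyte, stem cell and ATOH1 lists took no part in the choice.

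The tissue was intestinal epithelium of C57BL/6 mice, and each library gave 1 list of peaks, 12 lists in all. Goblet cells (GOB, 1 library) came from villi of Rbpj-/- mice and enterocytes (ENT, 1 library) from villi of Atoh1-/- mice, which lack secretory cells. Secretory progenitors (Sec-Pro) came from crypts in which Notch signalling was blocked, by deletion of Rbpj in H3K4me2 replicate 1 and by the Notch inhibitor dibenzazepine (DBZ) in replicate 2. The labels do not say which of these preparations served for the Sec-Pro H3K27ac, DHS and ATOH1 libraries (1 each), and no sort of Sec-Pro is stated. Enterocyte progenitors (Ent-Pro, 2 H3K4me2 libraries and 1 each of H3K27ac and DHS) came from crypts of Atoh1-/- mice. Stem cells (ISC, 1 library) were sorted for green fluorescent protein from Lgr5-eGFP-Cre mice. ATOH1 was precipitated from Sec-Pro with an antibody against the FLAG tag. The labels name neither the Cre driver that deleted Rbpj or Atoh1 nor the time of deletion, so lineage and genotype cannot be told apart in any comparison of GOB with ENT.

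H3K4me2 is laid down at promoters and enhancers and can remain where a regulatory element is not in use. H3K27ac marks elements that are active, and DNase I cuts where nucleosomes have given way to bound factors. An element with H3K4me2 but without acetylation and accessibility is commonly described as primed or poised. In the crypt, stem cells give rise to progenitors that become absorptive enterocytes or, where Notch signalling is low, secretory cells under the transcription factor ATOH1, a basic helix-loop-helix protein that binds E-box motifs.

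The lists held 68407 peaks in ISC, between 63293 and 92279 in the 4 progenitor H3K4me2 libraries, 86922 in GOB, 88489 in ENT and 15240 for ATOH1. The number of reads behind a list is unknown, so a region without a peak is not shown to lack the mark. The ISC list had the lowest scores of the H3K4me2 lists, with a highest score of 37.7 against 218 to 321 in the others. With 1 library each of GOB, ENT, ISC and ATOH1 there is no test between conditions. Brackets after shares give Wilson 95% intervals and brackets after differences of shares give 95% intervals for paired shares. Both cover counting error only, since regions are not replicates.

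The H3K4me2-alone regions were short and of middling score. Their median length was 510 bp (quartiles 330 and 735 bp), close to 518 bp over the whole Ent-Pro replicate 1 list. Short peaks of all 4 lists that carried H3K27ac without DHS measured 757 bp, those with DHS without H3K27ac 849 bp, and those with both 1146 bp. The score of the authors' peak caller, which ranks peaks within a list, had a median of 16.1 (percentile 51.9 of the list), against 22.0, 43.3 and 90.5 in those 3 classes. In the other lists the highest-scoring overlapping peak stood at a median percentile of 39.1 in Sec-Pro replicate 1, 62.5 in Sec-Pro replicate 2 and 37.9 in the other Ent-Pro library. The regions thus ranked higher in the DBZ library and in Ent-Pro replicate 1, whose shortest peak was 146 bp, than in the 2 libraries whose shortest peak was 200 bp. The lists of the former also held more peaks, 92279 and 85881 against 63293 and 64138. Percentiles of lists of such unlike length are not strictly comparable. At the length limit, the longest region inside measured 1991 bp (score 28.0, marked in ENT and ISC), and the shortest otherwise equal peak outside measured 2006 bp (score 121, marked in GOB, ENT and ISC). Wide peaks of the same kind were few, at 13.

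Most H3K4me2-alone regions were also marked in mature cells, and more of them in enterocytes than in goblet cells. A GOB peak overlapped 2554 of 3844 regions, or 66.4% [64.9 to 67.9], where 68.4% of all Ent-Pro replicate 1 peaks were overlapped. An ENT peak overlapped 2957, or 76.9% [75.6 to 78.2], where the whole list gave 73.3%. The ISC list held 1983 of them, or 51.6% [50.0 to 53.2], against 49.7% of the whole list. These shares lay near those of the whole list, which holds many weak peaks. ATOH1 peaks were scarcer than in the list as a whole, with 138 regions or 3.59% [3.05 to 4.23] overlapped, against 9.36%. Short peaks without H3K27ac and DHS that were missing from at least 1 other progenitor list had a still lower share, 2.22% [2.01 to 2.46]. Since 39.2% of all ATOH1 peaks overlapped a DHS, the choice of regions without DHS bears on these shares, to an extent that was not tested.

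**Figure D1:**
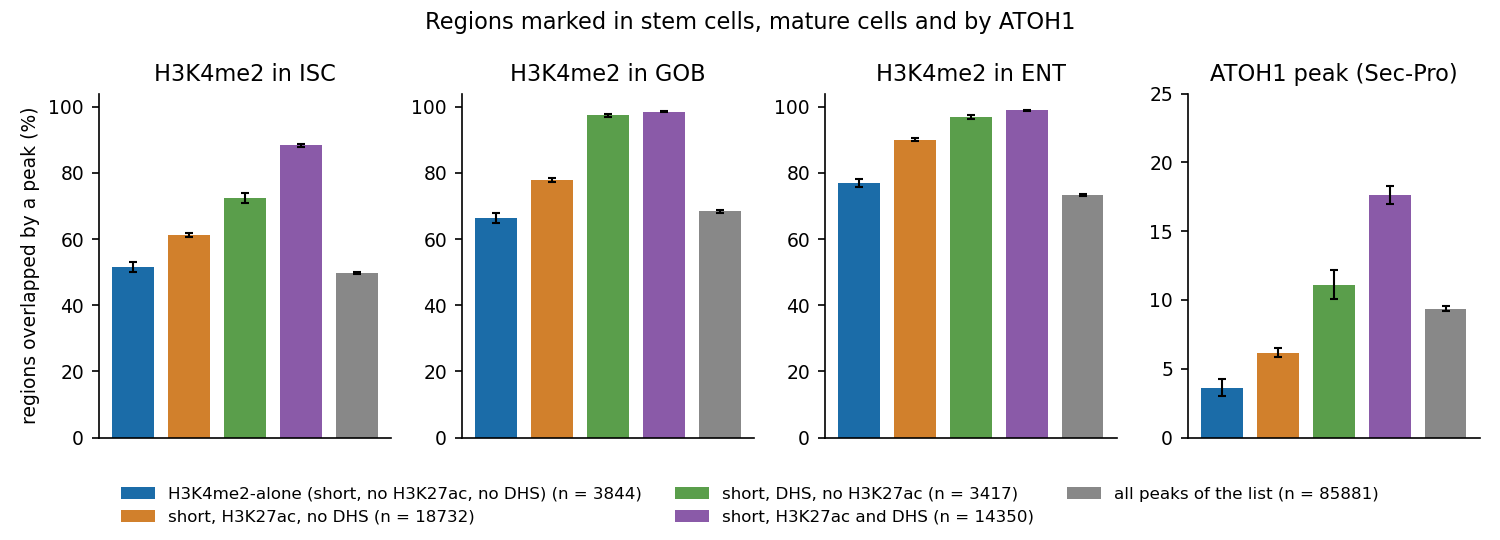
Bars give the percentage of regions overlapped by a peak in stem cells (ISC), goblet cells (GOB), enterocytes (ENT) and the ATOH1 list, with Wilson 95% intervals that cover counting error only. The H3K4me2-alone regions (51.6% in ISC, 66.4% in GOB, 76.9% in ENT, 3.59% with ATOH1) lie below the short peaks that carried H3K27ac, DHS or both in each panel, and near the whole list in all but the ATOH1 panel.

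Other short peaks of all 4 progenitor lists were marked in mature cells more often. With H3K27ac but no DHS, GOB peaks lay over 77.9% [77.3 to 78.4] and ENT peaks over 90.0% [89.6 to 90.4]. With DHS but no H3K27ac, GOB peaks lay over 97.5% [96.9 to 97.9] and ENT peaks over 97.0% [96.3 to 97.5]. Regions with both signals reached 98.5% and 99.0%. ATOH1 peaks followed the same order, from 3.59% in H3K4me2-alone regions to 6.16%, 11.1% and 17.6% in these 3 classes. Both mature cells marked 95.5% of these short regions with DHS without H3K27ac and 98.0% of those with both signals. Their median scores, given above, were also higher, and DHS outside such H3K4me2 peaks were not counted here.

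Peak score moved with all of these shares. Within the H3K4me2-alone regions, the share in GOB was 51.6% [48.5 to 54.8] in the lowest score quartile and 89.0% [86.8 to 90.8] in the highest (scores of 27.5 to 138). In ENT the same quartiles gave 64.3% [61.2 to 67.3] and 94.7% [93.1 to 95.9], and in ISC 25.4% [22.8 to 28.3] and 81.9% [79.3 to 84.2]. Length gave a like order, with ISC peaks in 21.1% of regions under 300 bp and 87.0% of those of 1000 bp or more. The comparison classes were therefore also weighted to the score and length quartiles of the H3K4me2-alone regions, in 16 cells.

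At like score and length the H3K4me2-alone regions had the lowest shares in mature cells. In stem cells they had the highest, with the weighted values of all classes between 46.2% and 51.6%. H3K4me2-alone regions stood at 66.4% in GOB, against 71.9% for H3K27ac without DHS and 92.4% for DHS without H3K27ac. In ENT the values were 76.9% against 86.7% and 90.9%. In ISC the weighted values were 51.6% against 48.0% and 46.2%, with 47.0% for regions with both signals, and no intervals were computed for them. By score quartile alone the order in ISC was mixed. In the same order of classes it was 41.8% [38.7 to 44.9] against 41.0% [39.4 to 42.6] and 30.1% [25.1 to 35.7] in the second quartile. The next quartile gave 57.0% [53.8 to 60.1] against 59.4% [58.0 to 60.7] and 47.2% [43.1 to 51.3]. The highest gave 81.9% [79.3 to 84.2] against 86.1% [85.3 to 86.9] and 86.3% [84.9 to 87.6]. Overlap with ATOH1 was 3.59% against 4.78% and 8.81%, and 15.0% with both signals. The smallest weighting cell of the DHS class held 3 regions, so its weighted values are the least certain.

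**Figure D2:**
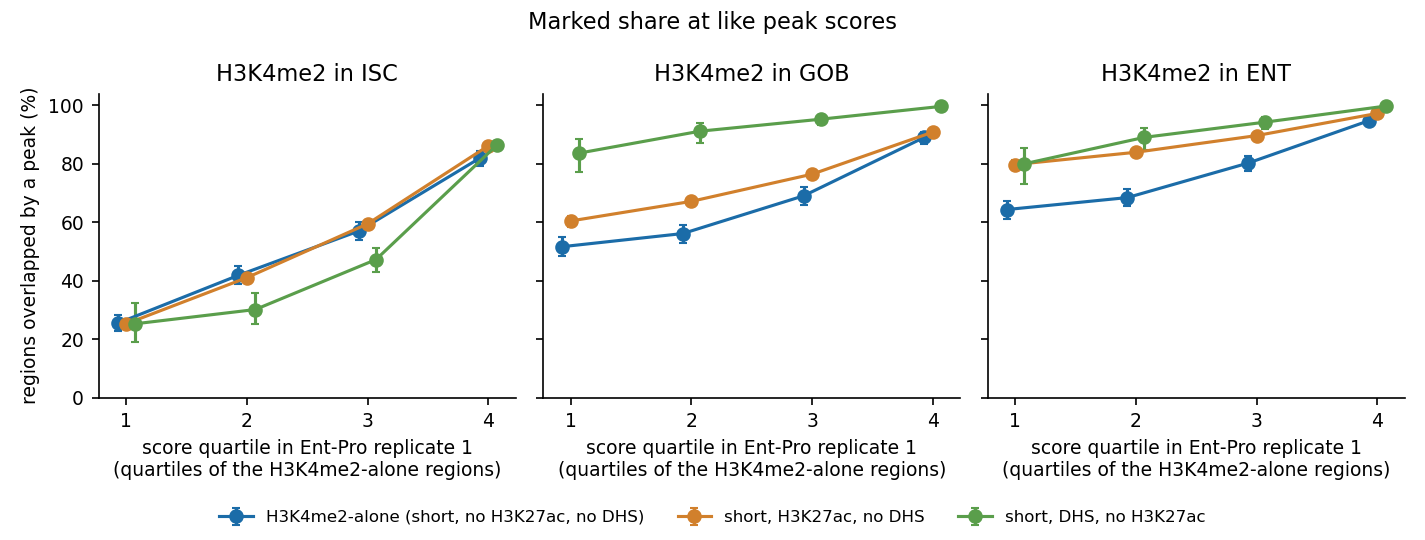
Points give the percentage of regions marked by H3K4me2 in ISC, GOB and ENT (vertical axes) by quartile of the Ent-Pro replicate 1 score, with quartile limits from the H3K4me2-alone regions and Wilson 95% intervals. In the lowest quartile 51.6% of H3K4me2-alone regions, 60.4% of regions with H3K27ac without DHS and 83.6% of regions with DHS without H3K27ac were marked in GOB, while in ISC the 3 classes gave 25.4%, 25.2% and 25.2%.

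The gap between goblet cells and enterocytes differed between the classes of peaks. Among H3K4me2-alone regions, GOB minus ENT was -10.5 percentage points [-11.9 to -9.05], with 217 regions marked in GOB alone and 620 in ENT alone. Regions with H3K27ac without DHS gave -12.2 points [-12.7 to -11.6]. Regions with DHS without H3K27ac gave 0.498 points [-0.128 to 1.12], with 68 marked in GOB alone and 51 in ENT alone. Shares near 97% leave little room for a gap, but the lowest score quartile, where 83.6% and 79.9% of 159 such open regions were marked in GOB and ENT, gave 3.77 points [-2.48 to 10.03]. The same quartile of the H3K4me2-alone regions gave -12.7 points [-15.9 to -9.43], and its interval does not meet that of the open regions. Regions with both H3K27ac and DHS gave -0.460 points [-0.657 to -0.263] in all and -7.41 [-12.29 to -2.52] in that lowest quartile (243 regions), so a gap was also found with DHS present. Short peaks without H3K27ac and DHS that were missing from at least 1 of the other progenitor lists gave -0.815 points [-1.56 to -0.0690], with 33.4% of 16190 marked in GOB and 34.2% in ENT, a small gap without DHS. Those peaks were shorter and weaker, and they were not weighted to the score and length of the H3K4me2-alone regions. Over the whole Ent-Pro replicate 1 list the difference was -4.96 points [-5.23 to -4.70]. With the upper 50% by score of each mature list, the difference over all H3K4me2-alone regions was -2.76 points, with 44.0% in GOB and 46.8% in ENT.

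By their marks in the mature cells the H3K4me2-alone regions fell into 4 classes. Both GOB and ENT marked 2337 of them, or 60.8% [59.2 to 62.3], against 62.8% of all Ent-Pro replicate 1 peaks. GOB alone marked 5.65% [4.96 to 6.42], against 5.57%. ENT alone marked 16.1% [15.0 to 17.3], against 10.5%. Neither marked 670 regions, or 17.4% [16.3 to 18.7], against 21.1%. The share in neither was 26.1% where a peak in Sec-Pro replicate 1 was not asked for.

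Peaks present in 1 mature list alone were weak there. At regions marked in GOB alone the GOB peak stood at a median percentile of 38.4 of its list and measured 267 bp. At regions marked in ENT alone the ENT peak stood at percentile 37.2 and measured 282 bp. Where both lists had a peak, the medians were percentile 62.8 and 491 bp in GOB and percentile 61.4 and 551 bp in ENT. A mature peak reached 2000 bp or more at 7.32% of the regions marked in GOB and at 6.87% of those marked in ENT.

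The strongest regions of each class were named by the lowest of their score percentiles in the 4 progenitor lists, with 1-based mm9 positions. The first region marked in both mature cells lay on chromosome 3 at 69908013 to 69908998, with scores of 73.9 and 132 in the Sec-Pro libraries (replicate 1, then 2) and of 128 and 99.8 in those of Ent-Pro. It scored 75.0 in GOB, 110 in ENT and 19.7 in ISC (percentile 96.1 of that list). The nearest H3K27ac peak was 208860 bp away and the nearest DHS 195512 bp away. It is an H3K4me2 site of the upper 10% of every progenitor list, with no acetylation or accessibility called for 100 kb on either side. The next one lay on chromosome 1 at 36841671 to 36842598 and scored 144 in GOB, 95.3 in ENT and 15.2 in ISC. The last of the 3 lay on chromosome 8 at 89109145 to 89109798, with percentiles of 81.5 in GOB, 87.9 in ENT and 70.7 in ISC. The choice of this class fixed the marks of all 3 regions in progenitors and mature cells, and each of them also had an ISC peak.

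Of the 6 named regions marked in 1 mature cell type alone, 3 were pieces of wider peaks in other lists. The first region marked in GOB alone lay on chromosome 6 at 72183473 to 72183846. It was 374 bp long in Ent-Pro replicate 1, while the peaks over it measured 2548 bp in Sec-Pro replicate 1, 2303 bp in Ent-Pro replicate 2 and 2467 bp in GOB (score 107). The next one, on chromosome 9 at 37339492 to 37340071, lay 114 bp from H3K27ac and under a GOB peak of 2037 bp (score 157). Only the next in rank, on chromosome 14 at 76695234 to 76696011, lay under no peak of 2000 bp or more. It was 4400 bp from H3K27ac, with a GOB peak of 325 bp and score 22.5. The first region marked in ENT alone, on chromosome 11 at 68938177 to 68938706, lay 119 bp from H3K27ac, under a peak of 6522 bp in Sec-Pro replicate 2 and under an ENT peak of 1620 bp (score 164, percentile 99.3). The others marked in ENT alone lay under no peak of 2000 bp or more. One, on chromosome 8 at 90975079 to 90976226, was 7220 bp from H3K27ac and 1647 bp from a DHS, and had a weak ENT peak (score 9.47). The last in rank, at 29570626 to 29571479 of chromosome 6, was 10052 bp from H3K27ac and 10591 bp from a DHS, with an ENT score of 7.51. Both had an ISC peak (score 9.91), as had the GOB-alone regions on chromosomes 6 and 9. The regions on chromosomes 14 and 11 had none.

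Among regions found in neither mature list, the first 3 lay close to acetylated chromatin. The first, on chromosome 17 at 15968710 to 15968962, was 253 bp long in Ent-Pro replicate 1 and lay within peaks of 5216 and 5865 bp in the Sec-Pro libraries and of 5109 bp in the other Ent-Pro library. H3K27ac began 84 bp from it. The next, on chromosome 11 at 115883087 to 115884386, measured 1300 bp, had similar lengths in the other progenitor lists (1247, 1591 and 1373 bp) and a weak ISC peak (score 5.39), with H3K27ac 381 bp away. The last named, on chromosome 10 at 116811491 to 116811832, lay 365 bp from H3K27ac and had no ISC peak.

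Nearness to active chromatin was therefore measured for all regions. The median distance to the nearest H3K27ac peak of either progenitor was 6114 bp and to the nearest DHS 7162 bp. An H3K27ac or DHS peak lay within 1 kb of 1366 regions, or 35.5%, and 1102 regions lay over 10 kb from both. In 327 regions (8.51%) at least 1 of the other progenitor lists had a peak of 2000 bp or more over the region, and 267 of these lay within 1 kb of H3K27ac or DHS. GOB minus ENT was -9.44 points [-11.7 to -7.16] up to 1 kb, -9.59 [-12.0 to -7.16] from 1 to 10 kb, -12.4 [-15.3 to -9.49] from 10 to 100 kb and -17.4 [-27.9 to -6.99] at the 109 regions farther away. ENT was the higher in each bin, and the intervals of the bins overlap.

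Regions away from active chromatin were marked in stem cells more often. The ISC share was 34.5% [32.0 to 37.0] up to 1 kb, 57.7% [55.1 to 60.3] from 1 to 10 kb, 65.4% [62.3 to 68.3] from 10 to 100 kb and 63.3% [53.9 to 71.8] beyond. Scores moved with distance too, with a median of 12.8 up to 1 kb and 17.7 and 19.6 in the next bins. Within each score quartile, from the lowest to the highest, the ISC share over 1 kb against up to 1 kb was 32.8% against 18.3%, 50.9% against 28.8%, 61.8% against 45.4% and 85.4% against 68.8%. In the lowest quartile the mature marks went the other way, with 43.7% [39.3 to 48.2] over 1 kb and 59.4% [54.9 to 63.7] up to 1 kb in GOB, and 59.3% [54.8 to 63.7] and 69.2% [64.9 to 73.1] in ENT. In the second quartile the order was the same, with 51.7% [47.7 to 55.8] and 62.2% [57.4 to 66.9] in GOB and 65.2% [61.2 to 68.9] and 73.0% [68.4 to 77.1] in ENT. In the next quartile the values were 68.4% and 70.4% in GOB and 80.2% and 80.3% in ENT. In the highest quartile it was turned round, with 90.0% [87.6 to 91.9] over 1 kb and 85.1% [79.6 to 89.4] up to 1 kb in GOB, and 95.8% [94.1 to 97.0] and 90.6% [85.8 to 93.9] in ENT. The Ent-Pro replicate 1 peaks over 1 kb away were also longer (medians of 317 and 278 bp in the lowest quartile), and the part of length in this was not tested.

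A stem cell peak went with a mature peak over all regions, but not at equal score in the lower quartiles. Of the 1983 regions with an ISC peak, GOB marked 71.2% [69.1 to 73.1] and ENT 81.5% [79.8 to 83.2], against 61.4% [59.2 to 63.6] and 72.0% [69.9 to 74.0] of the 1861 without. Their median scores were 22.5 and 11.9. In the lowest score quartile the order was turned round, with 41.5% [35.5 to 47.8] of regions with and 55.1% [51.4 to 58.7] of regions without an ISC peak marked in GOB, and 57.3% [50.9 to 63.3] and 66.7% [63.2 to 70.1] in ENT. In the second quartile the shares were 57.2% and 55.2% in GOB and 68.8% and 68.1% in ENT. In the next quartile the lineages went opposite ways, with 67.5% [63.5 to 71.3] and 71.0% [66.5 to 75.2] in GOB and 81.4% [77.9 to 84.4] and 78.7% [74.5 to 82.4] in ENT, and the intervals overlap. In the highest quartile the shares were 90.0% [87.7 to 91.9] and 84.5% [78.4 to 89.1] in GOB and 95.7% [94.0 to 96.9] and 90.2% [84.9 to 93.8] in ENT. Over all regions GOB minus ENT was -10.4 points [-12.3 to -8.46] with an ISC peak and -10.6 [-12.7 to -8.45] without. By score quartile, from the lowest to the highest, it was -15.8, -11.5, -13.9 and -5.72 points with an ISC peak and -11.6, -12.9, -7.73 and -5.75 without. Neither side was the higher in all quartiles, and the intervals with and without an ISC peak overlap in each.

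Where the stem cell list had a peak, it was narrow. The highest-scoring ISC peak over a region had a median length of 291 bp, covered 51.1% of the region and stood at percentile 43.1 of the list. It was longer than the region in 189 of 1983 cases, or 9.53%. Peaks of GOB were longer in 42.0% of cases and those of ENT in 42.8%. In the progenitors this was 38.1% in Sec-Pro replicate 1, 70.2% in replicate 2 and 38.4% in Ent-Pro replicate 2. The whole ISC list also had short peaks, with a median of 341 bp against 371 to 621 bp in the other H3K4me2 lists. If at least 50% of a region had to be covered, the ISC share was 26.6%, the GOB share 47.8% and the ENT share 61.0%.

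ATOH1 peaks in H3K4me2-alone regions went with the opposite lineage balance. Of the 138 regions that an ATOH1 peak overlapped, GOB marked 124 or 89.9% [83.7 to 93.9] and ENT 114 or 82.6% [75.4 to 88.0]. Of the 3706 without, GOB marked 65.6% [64.0 to 67.1] and ENT 76.7% [75.3 to 78.0]. GOB minus ENT was 7.25 points [1.01 to 13.5] with an ATOH1 peak and -11.1 points [-12.6 to -9.68] without, a difference of 18.4 points [12.0 to 24.8]. In counts, 15 regions with ATOH1 were marked in GOB alone and 5 in ENT alone, against 202 and 615 regions without. ISC peaks lay in 71.7% [63.7 to 78.6] of the regions with ATOH1 and 50.8% [49.2 to 52.4] of those without.

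**Figure D3:**
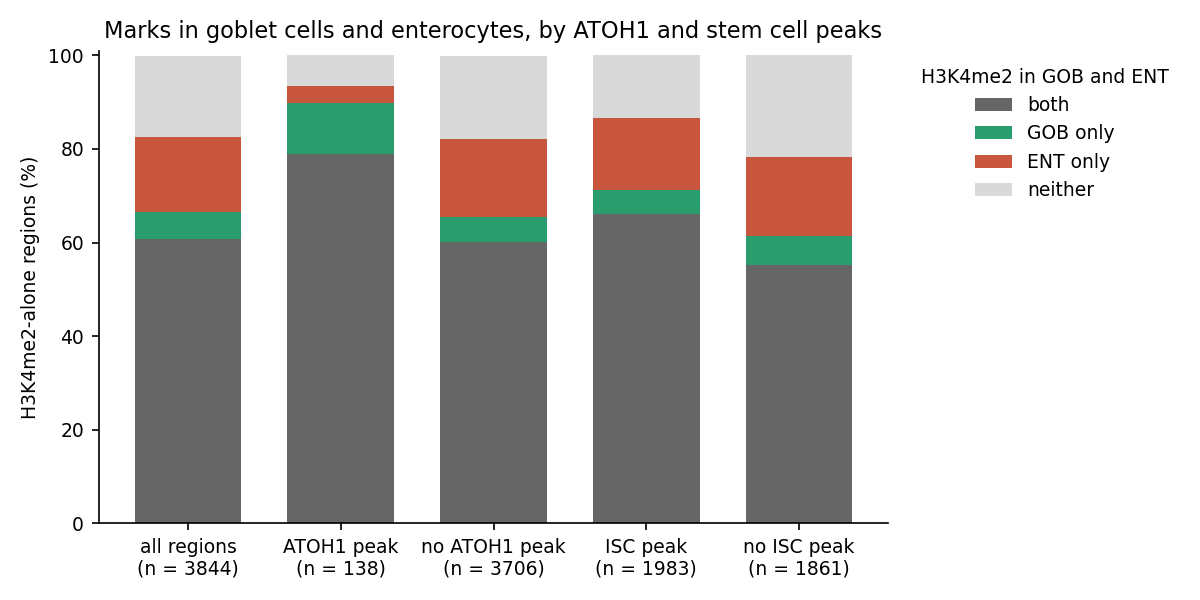
Stacked bars give the percentage of H3K4me2-alone regions marked in GOB and ENT, in GOB only, in ENT only and in neither, for all 3844 regions, by overlap with an ATOH1 peak of Sec-Pro and by overlap with an ISC peak. Regions with an ATOH1 peak have 10.9% in the GOB-only class and 3.62% in the ENT-only class, against 5.45% and 16.6% without, while the bars by ISC peak differ mainly in the share marked in neither (13.5% with and 21.7% without).

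The regions with ATOH1 had higher scores (median 21.6 against 15.7) and greater length (624 against 506 bp). Within score quartiles their numbers were small. GOB minus ENT with an ATOH1 peak was 0 points [-26.1 to 26.1] in the lowest quartile (15 regions), 20.0 [2.96 to 37.0] in the second (30), 8.70 [-1.43 to 18.8] in the next (46) and 0 [-5.90 to 5.90] in the highest (47). Without ATOH1 the same quartiles gave -12.9 [-16.1 to -9.61], -13.3 [-16.6 to -10.1], -12.2 [-15.3 to -9.18] and -6.02 points [-8.00 to -4.03]. The value with ATOH1 was the higher in each quartile, but the intervals with and without ATOH1 overlap in the lowest and the highest. If the other progenitor lists had to cover at least 50% of a region, 97 regions with ATOH1 were left, and their difference was 1.03 points.

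Other classes of peaks differed in the size of this contrast. With minus without ATOH1, the GOB minus ENT difference was 14.6 points [12.9 to 16.3] higher at short regions with H3K27ac without DHS, 0.924 [-1.05 to 2.90] at those with DHS without H3K27ac, 0.990 [0.583 to 1.40] at those with both, and 10.8 [10.1 to 11.4] over all Ent-Pro replicate 1 peaks. In the classes with DHS, GOB and ENT each marked 96.9% to 99.6% of regions with or without ATOH1. Such shares leave little room for a contrast. At short peaks without H3K27ac and DHS that were missing from at least 1 other progenitor list it was 29.5 [23.9 to 35.1], with 28.1 points at 360 peaks with ATOH1 and -1.47 without. The contrasts of these classes were not weighted by score or length, and the peaks of this last class were shorter and weaker. A higher value at ATOH1 peaks is therefore not particular to the H3K4me2-alone regions. Where both mature cells had a peak, the GOB peak ranked above the ENT peak by a median of 6.56 percentile points at the 109 regions with ATOH1 (higher in 67.0%) and by 1.12 at the 2228 without (higher in 53.8%).

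GOB minus ENT was lower with distance from ATOH1 peaks, in the H3K4me2-alone regions as in the whole list. GOB minus ENT was 3.64 points [-5.42 to 12.7] at the 110 regions within 1 kb of an ATOH1 peak that did not overlap it. It was -4.82 [-7.77 to -1.87] from 1 to 10 kb, -11.5 [-13.6 to -9.41] from 10 to 100 kb and -16.6 [-19.5 to -13.7] at the 1042 regions over 100 kb away. Most of this lay in GOB, which marked 80.0%, 74.8%, 66.0% and 56.6% of the regions in these bins, while ENT marked 76.4%, 79.7%, 77.5% and 73.2%. Median scores of the bins were 14.3, 14.6, 16.6 and 16.5, with 21.6 at the regions that overlapped ATOH1. Their median lengths were 381, 467, 512 and 535 bp, with 624 bp at the overlapping regions. The part of score and length in this order was not tested. All Ent-Pro replicate 1 peaks gave 4.80 points at ATOH1 peaks and 3.19, -2.79, -7.04 and -9.63 in the same bins, so the order is not particular to the H3K4me2-alone regions. Regions with H3K27ac without DHS gave 1.56 points at ATOH1 peaks and -20.4 over 100 kb away, whereas those with DHS without H3K27ac lay between -0.585 and 1.32 in every bin. The GOB and ENT shares of that class were 95.9% to 98.9% in all bins, which leaves little room for a gap.

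**Figure D4:**
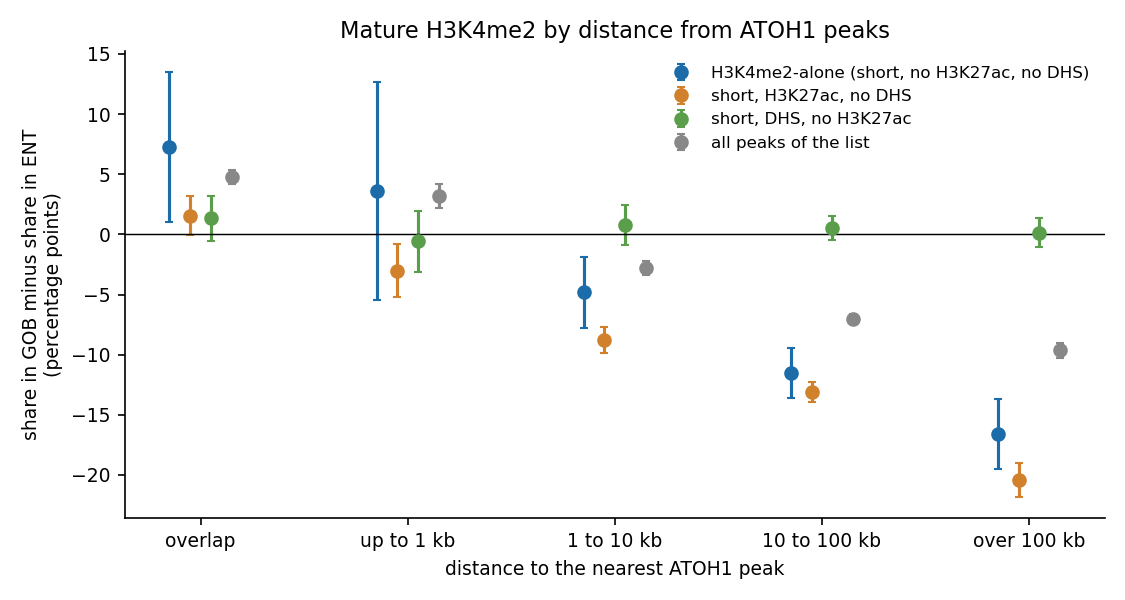
Points give the share of regions marked in GOB minus the share marked in ENT, in percentage points, by distance to the nearest ATOH1 peak of Sec-Pro, with 95% intervals for paired shares. The H3K4me2-alone regions run from 7.25 at ATOH1 peaks to -16.6 over 100 kb away, all peaks of the list run from 4.80 to -9.63, the regions with H3K27ac without DHS run from 1.56 to -20.4, and the regions with DHS without H3K27ac stay near 0. In that last class both shares are 95.9% or more in every bin, which leaves little room for a gap.

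The ATOH1 peaks in these regions were of ordinary strength. The 138 regions held 136 distinct highest-scoring ATOH1 peaks, 0.892% of the ATOH1 list, with a median score of 7.31 (percentile 58.5) against 6.47 over the list. Their centre lay inside the region in 105 cases, and centres of peak and region were a median of 156 bp apart. DHS overlapped 2 of the ATOH1 peaks themselves, where 39.2% of all ATOH1 peaks overlapped a DHS, a gap that the choice of regions without DHS fixes.

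The strongest of them lay on chromosome 19 at 16672721 to 16673897 (ATOH1 score 109, percentile 99.4). H3K4me2 scored 24.1 and 51.2 there in the Sec-Pro libraries, 64.7 and 39.8 in those of Ent-Pro, 40.1 in GOB, 21.0 in ENT and 9.48 in ISC. The nearest H3K27ac peak was 74686 bp away and the nearest DHS 26686 bp away, so a site with an ATOH1 peak in the upper 1% of its list had no open or acetylated chromatin called near it in either progenitor. On chromosome 4 at 140662467 to 140662639 (ATOH1 score 76.3) GOB scored 19.3 and ENT 23.2, with a DHS 251 bp away and no ISC peak. On chromosome 7 at 119533529 to 119534788 (ATOH1 score 76.3) GOB scored 12.4, and neither ENT nor ISC had a peak. Its H3K4me2 was weak in Rbpj-deleted Sec-Pro (8.27) and in Ent-Pro replicate 2 (7.12).

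The marks of a region in mature cells moved with its rank in the progenitor lists. A peak in both Sec-Pro and both Ent-Pro lists was required of every region, so regions present in the progenitors of 1 lineage alone are not among them, and the ranks below are a description within that choice. Regions marked in both mature cells stood at median percentiles of 45.0 and 65.8 in the Sec-Pro libraries (replicate 1, then 2) and of 57.4 and 43.3 in those of Ent-Pro. Those marked in GOB alone stood at 28.7, 58.6, 47.4 and 27.4 in the same order, and those in ENT alone at 32.8, 59.0, 48.1 and 31.1. Those in neither stood at 24.0, 55.1, 41.9 and 27.4. Between libraries with the same shortest peak, Sec-Pro replicate 2 minus Ent-Pro replicate 1 had a median of 9.66 percentile points at regions marked in GOB alone and 9.84 at those in ENT alone. Sec-Pro replicate 1 minus Ent-Pro replicate 2 gave 1.68 and 0.349. Regions marked in both and in neither gave 5.38 and 10.9 in the first pair, so its positive values were shared by all classes, and 0.478 and -1.66 in the other. In Ent-Pro replicate 1 the peak is the region itself, under 2000 bp, while peaks of any length count in the other lists. The part of this was not tested. At regions marked in GOB alone and in ENT alone the quartiles ran from 2.18 to 24.0 and from 1.10 to 21.1 in the first pair. In the other they ran from -12.0 to 12.3 and from -11.2 to 13.4, so they overlapped widely.

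**Figure D5:**
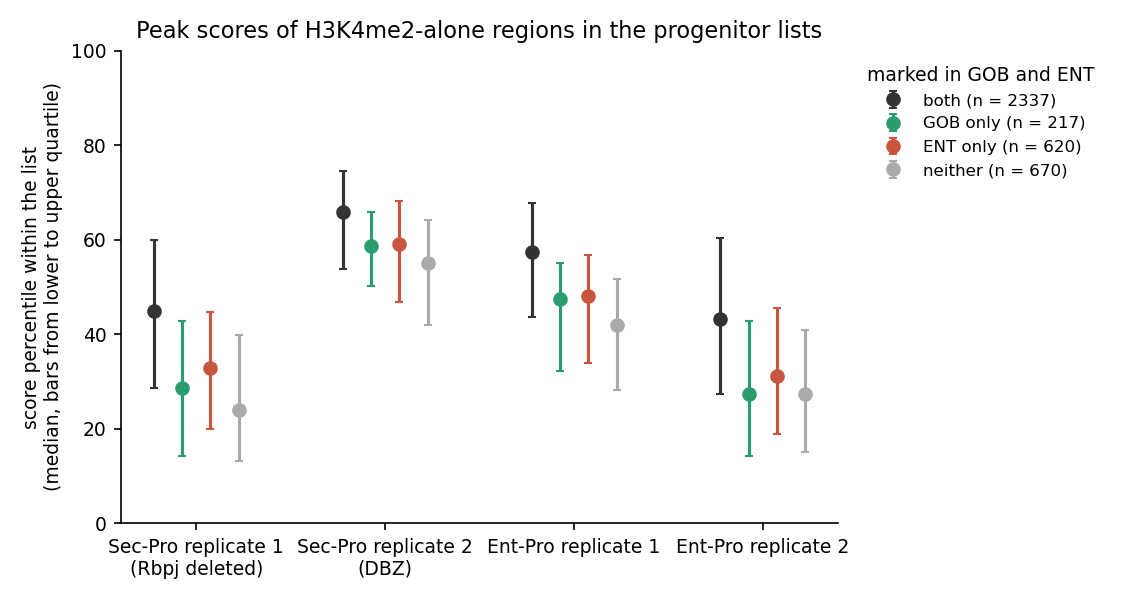
Points give the median score percentile of the H3K4me2-alone regions within each progenitor H3K4me2 list, with bars from the lower to the upper quartile, by their marks in GOB and ENT. In each library the regions marked in both mature cells rank highest (medians of 45.0, 65.8, 57.4 and 43.3), and the GOB-only and ENT-only regions lie within a few percentile points of each other.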

How the data were processed

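The genome build is mm9, and the tools named are MACS2, Bowtie 0.12.7 and CASAVA 1.7, per the submitters' processing notes. Their parameters, and whether the input DNA (3 of 15 samples) served as background, were not given in the sources used here. The authors deposited 1 peak list per library without pooling, with 5 columns and no header (chromosome, 0-based start, end, name and the authors' peak score, whose kind is not stated). Scores were used to rank peaks within a list, as percentiles. For each region the highest-scoring overlapping peak was taken. Overlap means at least 1 bp, and distances are gaps between edges. Whether replicates came from separate animals is not stated.

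Shares have Wilson 95% intervals and differences of paired shares have Wald intervals. No p-values were computed, because each mature population, ISC and ATOH1 have 1 list. Weighted shares use quartiles of score and length (16 cells). The 3 regions per class with the highest score in their weakest progenitor list were named, and the 3 with the highest ATOH1 score. Regions on chromosome 18 were not named. No gene table or sequence of mm9 was used here, so no genes are named and the planned gene lists and E-box counts were not run. The regions and comparisons were chosen with earlier results of these data known, and the comparison by ATOH1 and by distances was chosen after values were seen. Counting was tested on simulated data. Python 3.11.15, NumPy 2.4.6, SciPy 1.17.1, pandas 2.3.3 and matplotlib 3.10.9 were used. Alternatives are in the closing section.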

Additional observations from a re-analysis of the deposited data

How the results depend on the processing

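ENT marked more H3K4me2-alone regions than GOB in every alternative run, and regions with an ATOH1 peak gave a positive GOB minus ENT difference in each. Of 122 values, 68 stayed within the 95% interval of the reported one (for the number of regions, within 1.5 times) and 54 moved. The comparisons split by ATOH1 were added after seeing the data. With at least 50% of the region covered, GOB was 47.8%, ENT 61.0%, GOB minus ENT -13.1 points, neither 33.1%, ISC 26.6% and ATOH1 0.494%, with 15.8 points at the 19 regions with ATOH1 and -13.3 without. With 50% cover in the other progenitor lists, 2548 regions gave GOB 70.4%, ENT 82.3%, neither 13.8% and ISC 56.1%. The upper 50% of each list gave GOB 44.0%, ENT 46.8%, GOB minus ENT -2.76, neither 43.4%, ISC 21.0% and ATOH1 2.16%, with 21.7 points at 83 regions with ATOH1 and -3.30 without. Lists of equal length gave GOB 59.9%, ENT 67.8%, GOB minus ENT -7.91, neither 24.5% and -8.61 without ATOH1. A limit of 1000 bp gave GOB 64.8% and ISC 48.1%. Leaving out regions within 1 kb of H3K27ac or DHS gave 2478 regions and ISC 61.0%. Leaving out those within 1 kb of another Ent-Pro replicate 1 peak gave 1920 regions, GOB 69.9%, ENT 80.6%, neither 13.3%, ISC 64.2% and ATOH1 4.32%. Ent-Pro replicate 2 as the starting list gave GOB 63.8%, ENT 75.3% and neither 19.5%, and Sec-Pro replicate 2 gave ISC 49.2%. The cause of these shifts was not tested. When each progenitor library in turn was not asked for, the number of regions ran from 4082 to 5660, GOB from 56.9% to 66.1%, ENT from 66.8% to 77.1%, GOB minus ENT from -11.7 to -8.52, neither from 17.4% to 26.1%, ISC from 43.1% to 50.0%, ATOH1 from 3.16% to 3.41%, and GOB minus ENT from 7.19 to 10.5 with ATOH1 and from -12.4 to -9.18 without. GOB and ENT were paired by region only. Libraries were not paired with one another, and the replicate numbers of Sec-Pro are not given in the labels. Reads per library are unknown, so absence of a peak is not absence of the mark.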

Other observations

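The H3K4me2-alone regions were spread over the genome. They made up between 3.45% and 6.05% of the Ent-Pro replicate 1 peaks of an autosome and 4.15% of those on the X chromosome. ENT marked more of them than GOB on 20 of 20 chromosomes, as it did for all Ent-Pro replicate 1 peaks (also 20 of 20), with 56.6% to 73.0% in GOB and 69.8% to 82.2% in ENT over the autosomes. The ISC list held 31.1% [21.7 to 42.3] of the 74 regions on the X chromosome, against 42.7% to 60.2% on the autosomes. Over all Ent-Pro replicate 1 peaks the ISC share was 38.6% on the X chromosome and 48.1% to 51.3% on the autosomes, so the lower value there is shared by other peaks.

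Few of the regions stood close to one another. When regions less than 10 kb apart were joined, 3115 of 3844 (81.0%) were joined to no other H3K4me2-alone region, 340 runs held 729 regions, and 7 runs held 4 or more. Counting peaks of any kind, another Ent-Pro replicate 1 peak lay within 10 kb of 75.4% of the regions and within 1 kb of 50.1%. Over the whole list these shares were 87.7% and 67.9%. The run with the most members had 6 regions within 8.64 kb of chromosome 9 (34866964 to 34875604), of which GOB marked 2, ENT 5 and ISC none. On chromosome 17, 5 regions lay between 65890033 and 65906869, of which GOB marked 3, ENT 4 and ISC 5. Members of a run therefore did not all share their marks.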
